A study of Mus musculus with 227 samples.

Results

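The posterior Hox genes of the limb described here are 10 genes, chosen by name: Hoxa9, Hoxa10, Hoxa11 and Hoxa13 of the HoxA cluster, Hoxc10 of the HoxC cluster, and Hoxd9, Hoxd10, Hoxd11, Hoxd12 and Hoxd13 of the HoxD cluster. They are 10 of the 24388 genes in the expression table, and they cover paralog groups 9 to 13, a paralog group being the genes of different clusters that descend from the same ancestral gene. All 10 had a value in every cell. The question was which of them each sorted skeletal population expressed, and which were found together in the same cell.

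Expression was measured by RNA sequencing of single cells captured on the Fluidigm C1 microfluidic system. The cells came from the long bones of mice of the BL6 strain, taken on postnatal day 3. The cells had been sorted by surface antigens into 4 populations of skeletal stem, progenitor and stromal cells, and no treatment or genetic change is named for any of them. Cells labelled mSSC (37) were positive for CD200 and AlphaV integrin and negative for CD105, 6C3, Thy, CD45, Tie2 and Ter-119. Cells labelled CSP (26) were sorted as Thy-6C3-CD105+ and cells labelled THY+ (72) as Thy+6C3-CD105+, both also negative for CD45, Ter-119 and Tie2 and positive for AlphaV integrin. Cells labelled 6C3+ (92) were Thy-6C3+CD105+, negative for CD45 and Ter-119 and positive for AlphaV, with no mention of Tie2. The labels do not say which long bones, which limb or how many animals gave the cells, so the position of a cell along or between the limbs is not known from them.

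Hox genes encode homeodomain transcription factors whose order along each cluster follows the order in which they act along the body and limb axes. In the limb, genes of groups 9 and 10 act mainly in the upper arm or thigh segment, those of group 11 in the forearm or shank, and those of groups 12 and 13 in the wrist or ankle and digits, with paralogs of the HoxA and HoxD clusters partly replacing each other. Regional Hox expression persists after birth in stromal and periosteal cells of bone, where it marks the segment in which a cell lies.

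Paralogs are alike in their homeobox, the DNA segment coding for the homeodomain, which bears on whether reads of different members can be told apart. The homeobox sequences of group 10, the group most often detected, are given from the GENCODE M21 transcripts, located by the conserved codons of the recognition helix. Each is read 5′ to 3′, and capitals mark bases that differ from Hoxa10.
Hoxa10: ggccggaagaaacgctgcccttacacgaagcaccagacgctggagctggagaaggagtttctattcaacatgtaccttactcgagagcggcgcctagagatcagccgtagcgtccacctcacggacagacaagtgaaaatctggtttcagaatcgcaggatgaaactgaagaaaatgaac
Hoxc10: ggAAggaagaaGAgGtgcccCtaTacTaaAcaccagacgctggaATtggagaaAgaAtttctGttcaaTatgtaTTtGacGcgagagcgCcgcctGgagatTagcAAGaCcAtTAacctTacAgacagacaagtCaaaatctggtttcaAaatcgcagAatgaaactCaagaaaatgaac
Hoxd10: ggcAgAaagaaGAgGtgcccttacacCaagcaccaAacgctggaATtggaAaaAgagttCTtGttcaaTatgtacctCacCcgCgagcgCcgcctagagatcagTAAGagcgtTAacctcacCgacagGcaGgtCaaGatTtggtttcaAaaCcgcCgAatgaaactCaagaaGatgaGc
Within these 180 bases Hoxc10 differed from Hoxa10 at 35 positions and Hoxd10 at 38. Over the 6 pairs of members in the same paralog group, homeobox identity ran from 73.9% to 82.8% (median 80.6%). The 16 pairs within the same cluster had a median of 63.9% and the other 23 pairs one of 63.3%. The longest run of identical bases between whole transcripts was 14 to 17 bases for paralogs and 28 bases at most for any pair (Hoxd9 with Hoxd11). The labels do not state how reads that fit more than 1 gene were treated.

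On the mm10 assembly, with GENCODE M21 positions, the HoxA members lie on the minus strand of chromosome 6: Hoxa9 at chr6:52223100-52231089, Hoxa10 at chr6:52231197-52240854, Hoxa11 at chr6:52242106-52245810 and Hoxa13 at chr6:52257694-52260880. HoxD members lie on the plus strand of chromosome 2 in the order Hoxd13 (chr2:74668310-74671599), Hoxd12 (chr2:74675013-74677705), Hoxd11 (chr2:74679557-74687016), Hoxd10 (chr2:74691924-74695105) and Hoxd9 (chr2:74697727-74700208). Hoxc10 lies on the plus strand at chr15:102966796-102971893. Annotated overlaps touch several of these. Exons of Hoxa11os, an antisense RNA, cover 800 bases of Hoxa11's exons (35%), and an isoform of Hoxc5 shares 166 bases with Hoxc10 (8.70%). On the same strand as HoxD, the noncoding Gm28309 shares 455 exon bases with Hoxd11 (10.8%) and 104 with Hoxd10 (5.73%), and Mir196b shares 85 exon bases with Hoxa9. Whether the counting used strand is not given in the sources used here, so reads from Hoxa11 and Hoxa11os cannot be told apart with certainty.

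Values are FPKM, the authors' count of fragments scaled by transcript length and by all mapped fragments of the cell, so levels of different genes are on a per-length scale. Detection in a cell means an FPKM of 1 or more. The main set was the 125 cells with at least 1000 detected genes, namely 37 mSSC, 11 CSP, 43 THY+ and 34 6C3+ cells, and all values below refer to it unless stated. Median gene number per cell ranged from 2534 in mSSC to 3033 in CSP cells. No animal or culture is named for any cell, so each population counted as 1 sample and no p-value is given. The range after each share is its 95% interval by the exact Clopper-Pearson method, and it covers only the counting of cells. No label names a plate. Judged by their index numbers, mSSC and CSP libraries fall in the same set of index pairs while THY+ and 6C3+ each have a set of their own. For every comparison except CSP with mSSC, index set and population cannot be told apart. Read depth per cell is unknown, and a value of 0 does not show absence: Gapdh, a glycolytic enzyme gene, was not detected in 17 of the 125 cells, and Tbp, a low-level housekeeping gene, was detected in 18. Of the 15 chondrocyte markers, a median of 15 per cell was detected in mSSC and in CSP, 11 in 6C3+ and 6 in THY+ cells. At least 6 of 11 pericyte and smooth muscle markers were found in 13 THY+ cells, against 1 cell each in mSSC and 6C3+. Markers that define blood (Ptprc), endothelium (Pecam1, Kdr), muscle (Myod1) and Schwann cells (Sox10) were not detected in the main set, although Kdr in a THY+ cell (0.734 FPKM) and Sox10 in an mSSC cell (0.970 FPKM) had a value under the threshold.

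Hoxa10, a group 10 gene of the thigh and upper arm segment, was the member detected in the most cells, with 45 of 125 cells (36%, 27.6 to 45.1). In mSSC it was listed at 0 in 19 of 37 cells, was detected in 17 (45.9%, 29.5 to 63.1), and reached a median of 32.2 FPKM in those 17 with a highest value of 310. Among THY+ cells 16 of 43 had it (37.2%, 23 to 53.3), with a median of 10.1 and a highest value of 128 FPKM. Detection in 6C3+ cells was 11 of 34 (32.4%, 17.4 to 50.5), with a median of 9.60 and a highest value of 189 FPKM. CSP had a lone Hoxa10 cell of 11 (9.09%, 0.23 to 41.3), at 2.15 FPKM. All 4 intervals overlap. Positive cells spread widely within a population, from 1.10 FPKM upwards in mSSC, 1.66 in THY+ and 1.14 in 6C3+.

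Hoxa9, its neighbour in the cluster, was found in 22 of 125 cells (17.6%). It was detected in 7 mSSC cells (18.9%, 7.96 to 35.2), 3 CSP cells (27.3%, 6.02 to 61), 7 THY+ cells (16.3%, 6.81 to 30.7) and 5 6C3+ cells (14.7%, 4.95 to 31.1). Its level among positive cells had a median of 10.5 FPKM in mSSC, 36.3 in CSP, 27.1 in THY+ and 21.1 in 6C3+. The highest single value, 512 FPKM, was in an mSSC cell that also held the highest Hoxc10 value. By share, Hoxa9 and Hoxa11 were the members found more often in CSP than in mSSC, Hoxa11 by little (9.09% and 8.11%).

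Hoxa11, which acts in the forearm and shank, was rare, with 7 of 125 cells. The 3 mSSC cells had 15.8, 15.9 and 18.4 FPKM and the CSP cell 6.37, whereas the THY+ cells had 1.30 and 3.08 and the 6C3+ cell 1.16. A further 3 6C3+ cells and 1 THY+ cell had a value above 0 but under the detection threshold. Hoxa11os was detected in more cells than Hoxa11, 16 in all: 5 mSSC, 4 THY+, 7 6C3+ and 0 CSP cells. Both Hoxa11 and Hoxa11os were in 1 cell, against 0.797 from the product of the shares within each population. Of the 16 Hoxa11os cells, 12 also had Hoxa10, against 6.05 from the product of the shares within each population.

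The start of Hoxa11 shows how close the antisense gene comes. The 250 bases before the RefSeq start of Hoxa11 (GRCm38.p6, minus strand, chr6:52245811-52246060, 5′ to 3′) are printed because 98 of them lie in exons of Hoxa11os.
Hoxa11 promoter: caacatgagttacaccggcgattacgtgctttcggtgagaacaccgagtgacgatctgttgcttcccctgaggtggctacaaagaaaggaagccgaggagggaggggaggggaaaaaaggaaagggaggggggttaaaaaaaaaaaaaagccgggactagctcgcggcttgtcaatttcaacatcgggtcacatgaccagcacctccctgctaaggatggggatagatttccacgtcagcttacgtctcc
On either strand it holds no TATAAA (the TATA box), no TTTATNG (bound by posterior Hox proteins) and no TGACAG (bound by Meis proteins), which says only that these letters are not in this window.

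Hoxa13, the HoxA gene of the digits and wrist, was not detected in any of the 125 cells. The upper limits that these counts allow are 9.49% of mSSC, 28.5% of CSP, 8.22% of THY+ and 10.3% of 6C3+ cells, or 2.91% of all 125. Its HoxD paralog Hoxd13 was detected in 12 of the same cells.

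Hoxc10, a group 10 gene known for hindlimb expression, was found in 19 of 125 cells (15.2%). In mSSC it was listed at 0 in 29 of 37 cells and detected in 8 (21.6%, 9.83 to 38.2), with a lowest value of 1.12, a median of 44.7 and a highest value of 318 FPKM. In THY+ it was detected in 8 cells (18.6%, 8.39 to 33.4; median 28.4, highest 148 FPKM). The 3 6C3+ cells (8.82%, 1.86 to 23.7) had 49.2, 59.5 and 75.8 FPKM. It was listed at 0 in all 11 CSP cells, which allows a share of up to 28.5%. Positive cells were thus few but often at high values: none of the 3 6C3+ cells lay under 49.2 FPKM.

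**Figure D1:**
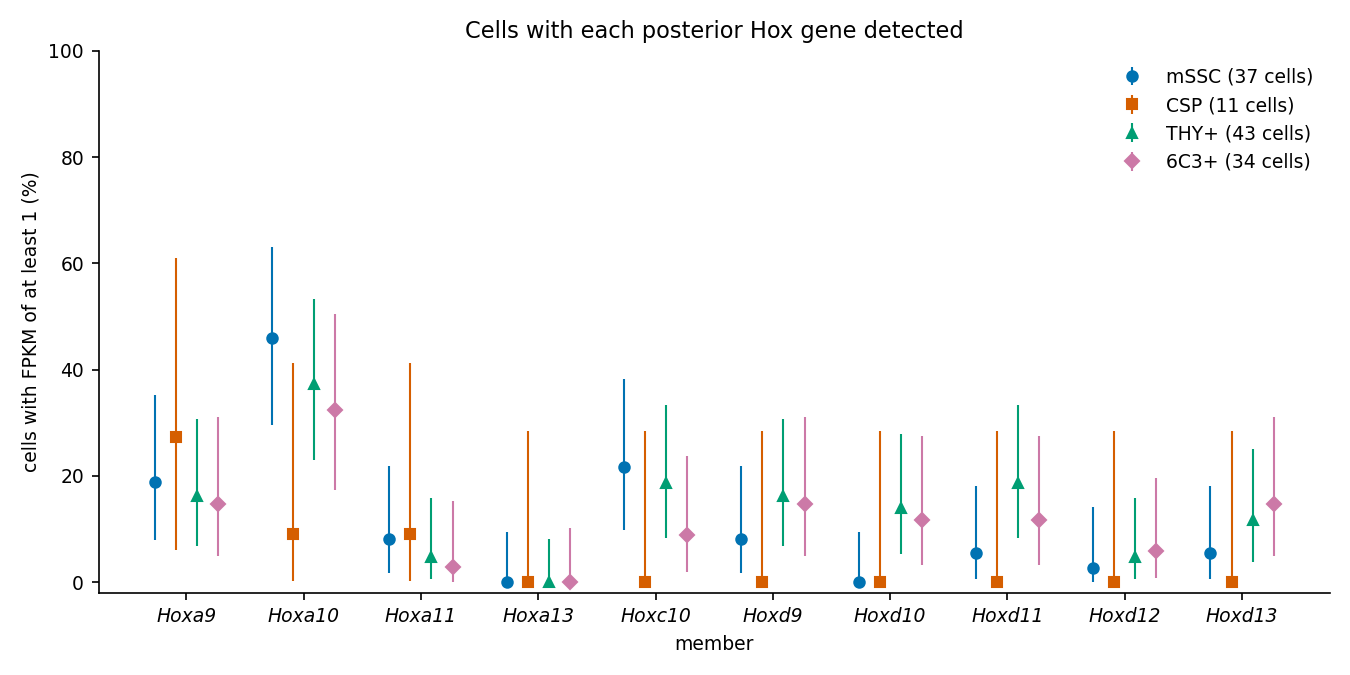
Share of main-set cells in which each of the 10 posterior Hox genes had an FPKM of at least 1 (y axis, percent), by gene (x axis) and population (colour and shape), with exact 95% Clopper-Pearson intervals as bars. Hoxa10 stands highest in mSSC (45.9%), Hoxa13 is at 0 throughout, and all 5 HoxD members are at 0 in the 11 CSP cells.

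Hoxd9, the HoxD gene of group 9, was detected in 15 of 125 cells (12%). Its 3 mSSC cells had 4.01, 9.74 and 52.5 FPKM. It was found in 7 THY+ cells (16.3%, 6.81 to 30.7), with a median of 8.98 and a highest value of 75.1, and in 5 6C3+ cells (14.7%, 4.95 to 31.1), with a median of 4.47 and a highest value of 24.1 FPKM. No CSP cell had it.

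Hoxd10, a group 10 gene, was found in 10 cells, all of them THY+ or 6C3+. The 6 THY+ cells (14%, 5.30 to 27.9) had 4.04, 30.9, 46.7, 53.4, 111 and 242 FPKM, and 3 more THY+ cells had a value under the threshold. The 4 6C3+ cells (11.8%, 3.30 to 27.5) had 2.27, 18.3, 19.3 and 26 FPKM. Hoxd10 was listed at 0 in every one of the 37 mSSC cells, where up to 9.49% of cells could have it, and in the 11 CSP cells. The intervals of THY+ (from 5.30%) and mSSC (up to 9.49%) overlap.

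Hoxd11, which with Hoxa11 shapes the forearm and shank, was detected in 14 of 125 cells (11.2%), against 7 for Hoxa11. The 2 mSSC cells had 27 and 206 FPKM. In THY+ it was found in 8 cells (18.6%, 8.39 to 33.4), at 1.29 to 20.5 FPKM with a median of 8.76, and in 6C3+ in 4 cells (11.8%, 3.30 to 27.5), with a median of 8.73 and a highest value of 23.1 FPKM. Both mSSC values thus lay above every THY+ and 6C3+ value, though in 2 cells only.

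Hoxd12 and Hoxd13, the most 5′ genes of the cluster and the ones active in wrist and digits, were rare. Hoxd12 was found in 5 cells: an mSSC cell at 297 FPKM, THY+ cells at 7.01 and 66, and 6C3+ cells at 2.31 and 4.74. Hoxd13 was found in 12 cells (9.60%), namely 2 mSSC cells at 1.75 and 3.91 FPKM, 5 THY+ cells (11.6%, 3.89 to 25.1) and 5 6C3+ cells (14.7%, 4.95 to 31.1). Its THY+ values had a median of 6.59 and a highest of 1229 FPKM, the highest value of any member in any cell, and the highest 6C3+ value was 37.8. The THY+ cell at 1229 FPKM also had Hoxa10 at 128 and Hoxd9 at 33.1 but no other HoxD member.

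**Figure D2:**
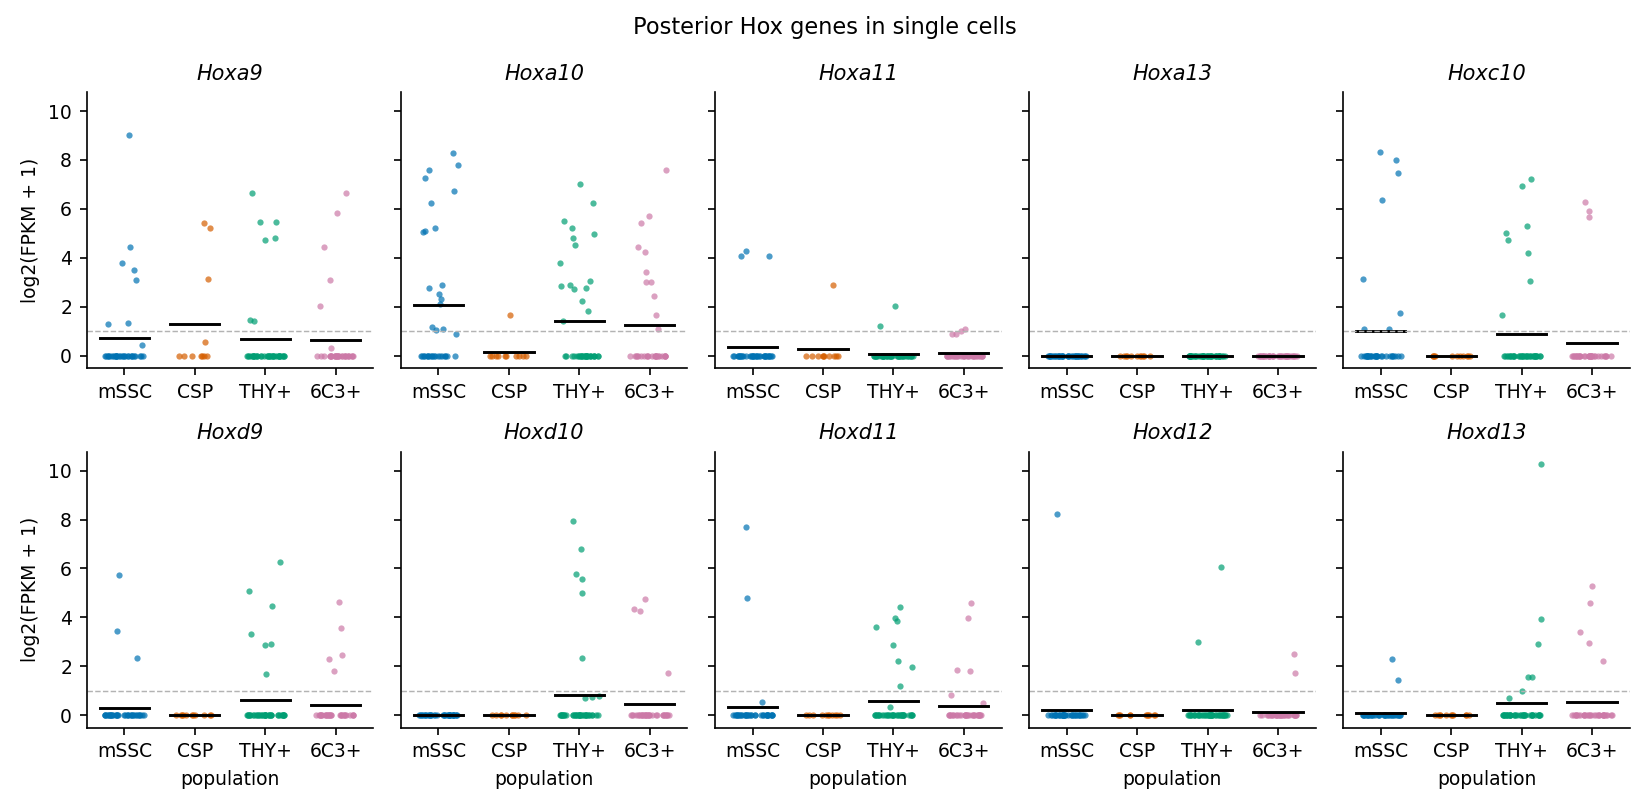
Level of each member in each main-set cell as log2(FPKM + 1) (y axis), by population (x axis); each point is a cell, the black line is the mean and the dashed line is the detection threshold. Most cells lie at 0 for every member, and positive cells spread over the whole range, up to the THY+ cell with 1229 FPKM of Hoxd13.

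Summed by cluster, the HoxA members were detected at like shares in mSSC, THY+ and 6C3+ cells while the HoxD share was higher in THY+ and 6C3+ than in mSSC, with intervals that overlap. At least 1 HoxA member was present in 20 of 37 mSSC (54.1%, 36.9 to 70.5), 4 of 11 CSP (36.4%, 10.9 to 69.2), 21 of 43 THY+ (48.8%, 33.3 to 64.5) and 15 of 34 6C3+ cells (44.1%, 27.2 to 62.1). At least 1 HoxD member was present in 6 mSSC cells (16.2%, 6.19 to 32), 0 CSP cells (up to 28.5%), 19 THY+ cells (44.2%, 29.1 to 60.1) and 13 6C3+ cells (38.2%, 22.2 to 56.4). Counted as detections, mSSC cells had 27 of HoxA and 8 of HoxD members, THY+ cells 25 and 28, and 6C3+ cells 17 and 20. The mSSC cells had a different index set from the THY+ and from the 6C3+ cells, and spike-in RNA took a median of 0.00117% of FPKM there against 20.8% in THY+ and 18.9% in 6C3+. The part of index set and spike-in level in the HoxD counts was not tested.

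By paralog group, group 10 led in every population but CSP. A group 10 member was found in 22 mSSC (59.5%, 42.1 to 75.2), 1 CSP, 20 THY+ (46.5%, 31.2 to 62.3) and 14 6C3+ cells (41.2%, 24.6 to 59.3). Group 9 was at close shares everywhere, with 10 mSSC (27%), 3 CSP (27.3%), 13 THY+ (30.2%) and 10 6C3+ cells (29.4%). Group 11 was found in 4 mSSC, 1 CSP, 10 THY+ (23.3%, 11.8 to 38.6) and 5 6C3+ cells. Group 12, represented by Hoxd12 alone, and group 13 were least frequent, at 1, 0, 2 and 2 cells and at 2, 0, 5 and 5 cells in the same order. Any of Hoxd11, Hoxd12 and Hoxd13 was present in 12 THY+ (27.9%, 15.3 to 43.7), 7 6C3+ (20.6%, 8.70 to 37.9), 3 mSSC (8.11%, 1.70 to 21.9) and 0 CSP cells.

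**Figure D3:**
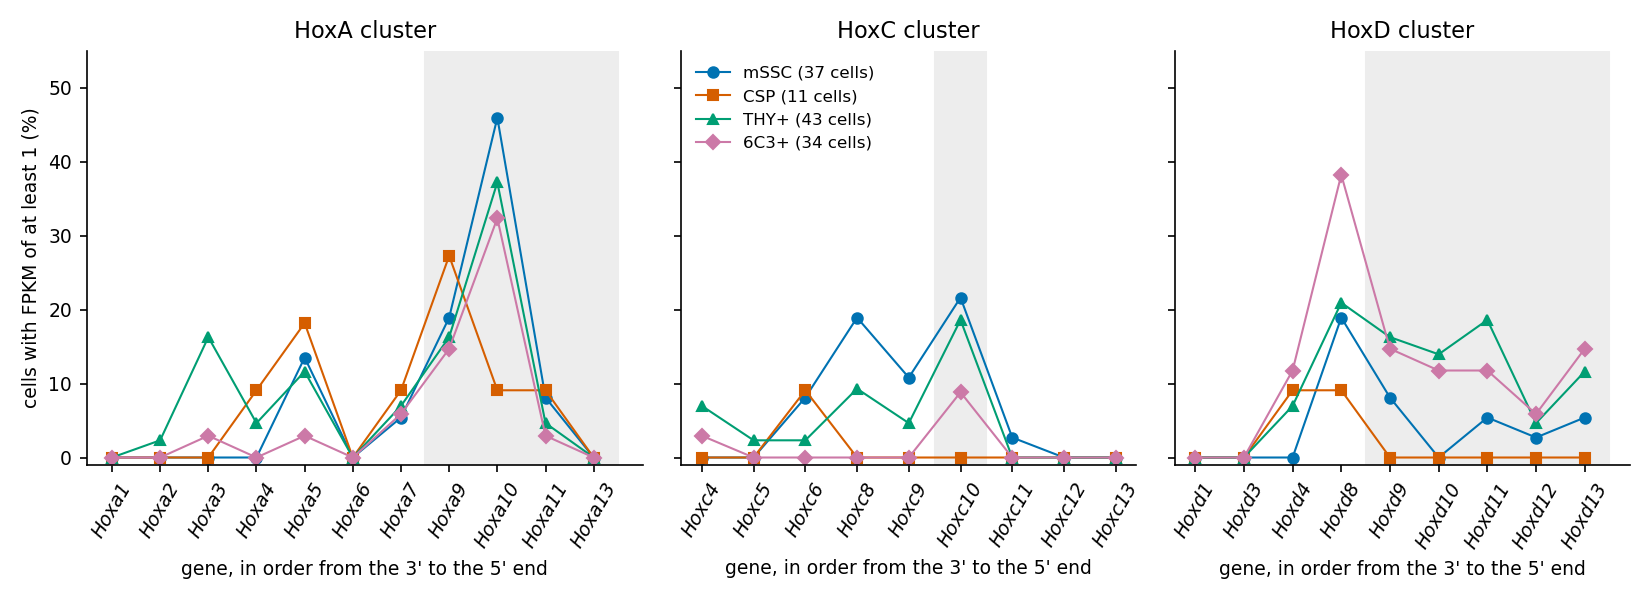
Share of main-set cells with each gene of the HoxA, HoxC and HoxD clusters detected (y axis, percent of cells with FPKM of at least 1), with genes ordered from the 3′ to the 5′ end of the cluster (x axis), by population; the grey band covers the 10 members. In mSSC, THY+ and 6C3+ the highest HoxA share is that of Hoxa10 and the highest HoxC share that of Hoxc10, while in CSP Hoxa9 (27.3%) leads HoxA; Hoxd8 reaches 38.2% in 6C3+, and Hoxa13, Hoxc12 and Hoxc13 are at 0.

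Most cells held at least 1 posterior Hox gene, and few held more than 3. At least 1 of the 10 was detected in 28 of 37 mSSC (75.7%, 58.8 to 88.2), 4 of 11 CSP (36.4%, 10.9 to 69.2), 30 of 43 THY+ (69.8%, 53.9 to 82.8) and 20 of 34 6C3+ cells (58.8%, 40.7 to 75.4). The mean number per cell was 1.16 in mSSC, 0.455 in CSP, 1.42 in THY+ and 1.18 in 6C3+. In mSSC 18 of 37 cells had exactly 1 member and 10 (27%, 13.8 to 44.1) had at least 2. In THY+ 12 of 43 had exactly 1 and 18 (41.9%, 27 to 57.9) at least 2, and in 6C3+ 7 of 34 had exactly 1 and 13 (38.2%, 22.2 to 56.4) at least 2. Intervals overlap for every pair of populations.

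**Figure D4:**
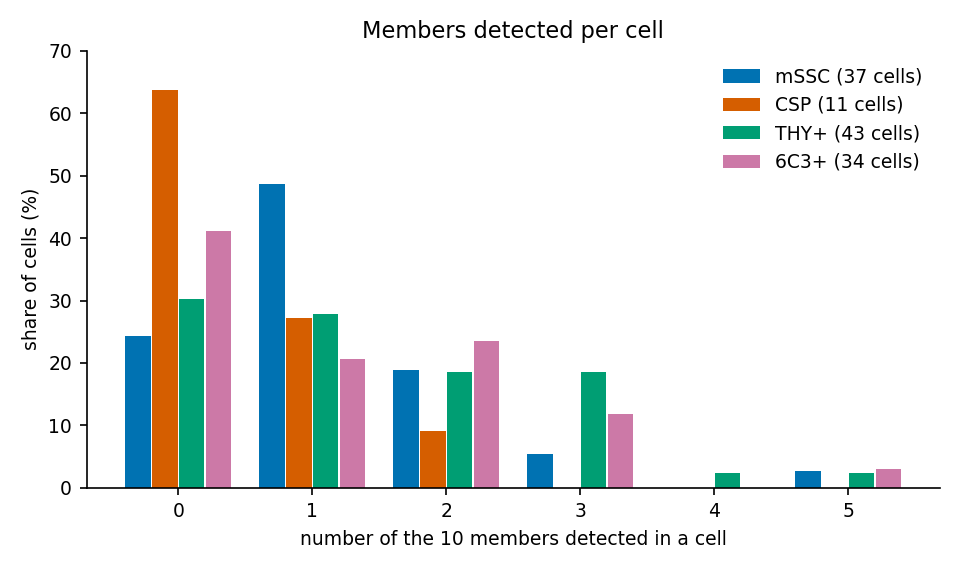
Share of main-set cells (y axis, percent) with 0 to 5 of the 10 members detected (x axis), by population. In mSSC the commonest number is 1 (18 of 37 cells), in CSP, THY+ and 6C3+ it is 0, and in each of mSSC, THY+ and 6C3+ a lone cell reaches 5.

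Gene number was set beside the number of members. Median gene number in cells with 0, with 1 and with at least 2 members was 2493, 2489 and 3020.5 in mSSC, 2660, 2972.5 and 3164.5 in THY+, and 2479, 2993 and 2967 in 6C3+. Among cells with at least 2000 and under 3000 genes a member was present in 16 of 24 mSSC, 1 of 3 CSP, 9 of 16 THY+ and 12 of 20 6C3+ cells. A HoxD member was present in 4 of 24 mSSC, 0 of 3 CSP, 4 of 16 THY+ and 9 of 20 6C3+ cells of that range. With at least 3000 genes the HoxD counts were 2 of 9 mSSC, 0 of 6 CSP, 12 of 20 THY+ and 4 of 11 6C3+ cells. With at least 1000 and under 2000 genes they were 0 of 4 mSSC, 0 of 2 CSP, 3 of 7 THY+ and 0 of 3 6C3+ cells, and a member of any cluster was in 4, 1, 5 and 0 of these. The THY+ HoxD share was thus lowest in the middle range, at 25%, and highest with at least 3000 genes, while the lowest range held 7 THY+ cells only. The part of gene number in these counts was not tested.

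Markers of other cell types were set beside the same counts. Among THY+ cells, those with at least 6 of the 11 pericyte and smooth muscle markers had a member in 7 of 13 cells (53.8%, 25.1 to 80.8), a HoxA member in 5 and a HoxD member in 7. The other THY+ cells had a member in 23 of 30 (76.7%, 57.7 to 90.1), a HoxA member in 16 and a HoxD member in 12. Hoxd11 was in 4 cells of each set. Cells with at least 8 of the 15 chondrocyte markers had a HoxD member in 4 of 33 mSSC, 7 of 15 THY+ and 6 of 18 6C3+ cells, and those with fewer in 2 of 4, 12 of 28 and 7 of 16. The mSSC share was thus the lowest of these 3 populations among cells rich in chondrocyte markers and the highest among the rest, there with 4 mSSC cells only. The part of cell makeup in these counts was not tested.

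Summed over all pairs, members were found together in a cell more often than the product of their shares. Pairs were counted in each population, and the number of cells with both genes was set beside the product of the 2 shares times the number of cells, summed over populations. These figures are a description, since cells differ in gene number and all pairs of a cell share its library. Over the 36 pairs of detected members there were 102 instances of both in a cell against 76.7 from the products, and 5 pairs were never seen together. The 6 pairs of neighbours in a cluster gave 24 against 14.6, the 7 pairs of the same cluster that are not neighbours 12 against 9.20, and the 5 pairs of paralogs 20 against 15.7. The remaining 18 pairs, from different clusters and groups, gave 46 against 37.1. Excess over the product was thus seen in each class of pair. A cell with many members adds many pairs to these sums. An mSSC cell with 2192 genes, a THY+ cell with 5239 and a 6C3+ cell with 3906 each held 5 members. Another THY+ cell, with 5786 genes, held 4. All pairs within these few cells are counted in the 102 instances. How far the excess rests on these few cells was not tested.

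Pairs of genes at the 5′ end of HoxD shared cells to unlike degrees. Of the 5 Hoxd12 cells, 4 also had Hoxd13, against 0.581 from the products: the mSSC cell, 1 of 2 THY+ cells and both 6C3+ cells. The other 8 Hoxd13 cells had no Hoxd12. Hoxd11 and Hoxd13 shared 5 cells against 1.63. With detection at 10 FPKM the shared cells fell to 0 for Hoxd12 with Hoxd13 and to 1 for Hoxd11 with Hoxd13, and among cells with 2000 to 3000 genes they were 1 and 2. Hoxd10 and Hoxd11, which both share exon bases with Gm28309, were together in 4 cells against 1.59, all 4 of them THY+. Hoxd12 shared 1 cell with Hoxd11 and 1 with Hoxd10, against 0.661 and 0.514. Hoxd10 and Hoxd13 shared 2 cells against 1.29. Hoxd9 did not follow: it shared 1 cell with Hoxd11 and 1 with Hoxd13, against 2.05 and 1.71. Levels within shared cells were unequal. The mSSC cell had Hoxd12 at 297 and Hoxd13 at 1.75 FPKM, and a 6C3+ cell had Hoxd12 at 2.31 and Hoxd13 at 37.8.

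The starts of this pair of neighbours differ in sequence. Shown 5′ to 3′ on the plus strand are the 250 bases before the RefSeq starts (GRCm38.p6) of Hoxd12 (chr2:74674763-74675012) and Hoxd13 (chr2:74667975-74668224), printed because 4 of the 5 Hoxd12 cells also had Hoxd13; capitals in Hoxd13 mark TATAAA on both strands, which overlap, from base -126 to base -119.
Hoxd12 promoter: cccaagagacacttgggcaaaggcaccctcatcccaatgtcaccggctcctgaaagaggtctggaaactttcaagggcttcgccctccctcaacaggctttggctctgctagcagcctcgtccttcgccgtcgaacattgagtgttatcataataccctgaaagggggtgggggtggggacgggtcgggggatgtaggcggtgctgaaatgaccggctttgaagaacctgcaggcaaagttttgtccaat
Hoxd13 promoter: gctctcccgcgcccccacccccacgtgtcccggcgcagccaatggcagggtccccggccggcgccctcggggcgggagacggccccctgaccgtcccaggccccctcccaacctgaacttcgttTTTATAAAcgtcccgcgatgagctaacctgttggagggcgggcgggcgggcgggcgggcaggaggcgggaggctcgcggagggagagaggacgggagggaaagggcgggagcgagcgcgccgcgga
The Hoxd13 window holds 31 CpG dinucleotides and the Hoxd12 window 10, against a median of 6 over 32851 RefSeq windows of this length. TATAAA is in 12.4% of all windows on either strand. Neither window holds TTTATNG, which is in 9.81% of all windows, or TGACAG, which is in 15.9%, letters bound by posterior Hox and by Meis proteins. A match is a description of the letters and not of a site in use. RefSeq windows were given for 9 of the 10 members, Hoxc10 excepted.

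Between clusters, HoxA and HoxD members shared cells in THY+ and 6C3+ but seldom in mSSC. Both kinds were present in 12 THY+ cells against 9.28 from the product and in 9 6C3+ cells against 5.74. In mSSC 2 cells had both against 3.24, and 4 of the 6 mSSC cells with a HoxD member had no HoxA member. Hoxa10 was found with Hoxd10 in 7 of the 10 Hoxd10 cells against 3.53, with Hoxd11 in 8 cells against 5.19 and with Hoxd13 in 7 against 4.40. Hoxa9 was found with Hoxd10 in 5 cells against 1.56 but with its own paralog Hoxd9 in 1 against 2.44. Hoxa10 and Hoxc10, paralogs on different chromosomes, shared 10 cells against 7.62, and Hoxa9 and Hoxa10, which are neighbours, shared 9 against 7.71.

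**Figure D5:**
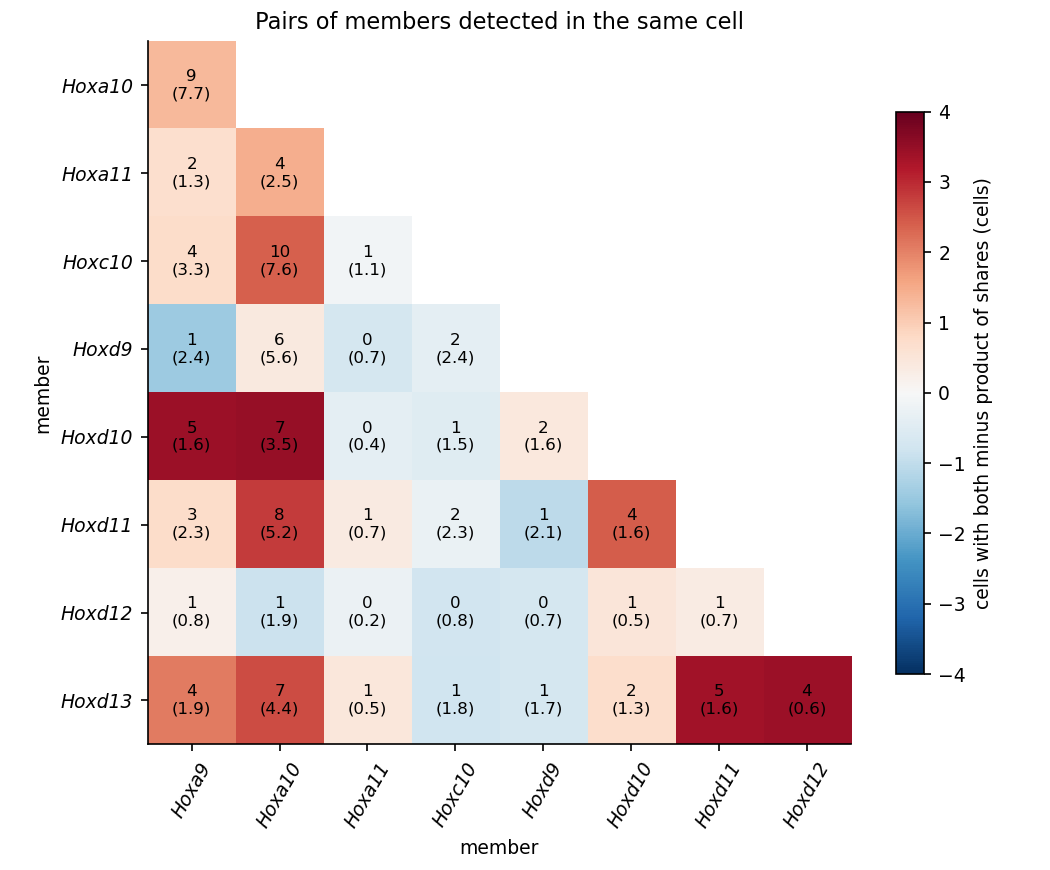
Number of cells in which each pair of members was detected together, summed over the 4 populations, with the number from the product of shares in parentheses; colour is the difference (cells), and Hoxa13, never detected, is left out. The darkest squares are Hoxd12 with Hoxd13 (4 cells against 0.581), Hoxd11 with Hoxd13 (5 against 1.63) and Hoxd10 with Hoxa9 and Hoxa10.

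Only 4 cells held 4 or more members. An mSSC cell with 2192 genes had Hoxa10 (33.5 FPKM), Hoxa11 (15.9), Hoxc10 (1.14), Hoxd11 (27) and Hoxd13 (3.91), and it was the only cell with both group 11 genes. A 6C3+ cell with 3906 genes had Hoxa9 (56.4), Hoxa10 (20.9), Hoxd10 (26), Hoxd12 (4.74) and Hoxd13 (3.61). A THY+ cell with 5239 genes had Hoxa9 (25.4), Hoxa10 (21.7), Hoxd10 (53.4), Hoxd11 (20.5) and Hoxd13 (1.95). The fourth, a THY+ cell with 5786 genes, had Hoxa9 (42.5), Hoxa10 (36.1), Hoxc10 (7.27) and Hoxd11 (11.1). Hoxa10 was in all 4, and the mSSC cell had fewer genes than the median cell of its population.

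Mean levels were then compared between populations as differences of mean log2(FPKM + 1), for all 6 pairs and for members detected in at least 1 cell of either. Comparisons that share a population are not independent. CSP was lower than mSSC in 7 of 8 members, beside 55.5% of all genes, with a median difference of -0.27 against -0.06 over 12522 genes. Hoxc10, Hoxd9, Hoxd11, Hoxd12 and Hoxd13 were at 0 in all main-set CSP cells and were tested only through mSSC cells. Those members could thus only come out lower. A difference of at least 1 in size was reached by 2 of the 8, while 17.2% of all genes reached it. These were Hoxa10, with mean log2 levels of 0.15 in CSP and 2.06 in mSSC (difference -1.91), and Hoxc10, with 0.00 and 1.01 (difference -1.01). Hoxa9 went the other way, with 1.31 in CSP and 0.73 in mSSC (difference 0.58), but was lower in CSP over all cells (-0.17) and with the log2 of the mean (-0.87). In no member were the intervals of the 2 shares apart, as they were in 0.751% of all genes. With 11 CSP cells, shares can be told apart only where they differ widely. The Hoxc10 difference shrank to -0.70 without the first 2 index rows of each index set and to -0.47 in cells with at least 2000 genes, which ends its call.

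THY+ and 6C3+ cells did not reach a difference of 1 from mSSC in any of the 9 members tested, where 12.4% and 11.8% of all genes did. Median differences over the members were -0.01 for THY+ (all genes 0.07) and -0.07 for 6C3+ (all genes -0.05), with 4 members higher and 5 lower in each. Of all genes, 58.5% were higher in THY+ and 44.7% in 6C3+ than in mSSC. In THY+ against mSSC, Hoxd9 (0.31), Hoxd10 (0.83), Hoxd11 (0.22) and Hoxd13 (0.41) were higher, and Hoxa9 (-0.03), Hoxa10 (-0.62), Hoxa11 (-0.26), Hoxc10 (-0.12) and Hoxd12 (-0.01) were lower. The same 4 HoxD members were higher in 6C3+ than in mSSC, by 0.12, 0.44, 0.05 and 0.44 in that order, while Hoxa10 was lower by 0.82 (difference -0.82); both comparisons share the mSSC cells. Some of these directions turned with the setting. With the log2 of the mean Hoxd11 was lower than in mSSC (differences of -1.42 in THY+ and -1.67 in 6C3+), and Hoxd9 turned to -0.25 in 6C3+. In cells with at least 2000 genes Hoxc10 turned to 0.59 in THY+ and 0.11 in 6C3+. Under every alternative run, Hoxd13 stayed higher and Hoxa10 lower in both comparisons. Hoxd10 was listed at 0 in every mSSC cell, so no setting could have made it lower than in mSSC. Intervals were apart in 0 members of either comparison, beside 2.93% and 1.79% of all genes.

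Against CSP, 7 of 9 members were higher in THY+ and 7 of 9 in 6C3+, the exceptions being Hoxa9 and Hoxa11 in both. Of all genes, 61.1% were higher in THY+ and 51% in 6C3+. Hoxc10 and every HoxD member were at 0 in all main-set CSP cells and were tested only through THY+ or 6C3+ cells. Their direction was thus fixed, which leaves Hoxa10 as the only higher member that could have gone either way. Hoxa10 alone reached a difference of 1, with 1.29 in THY+ minus CSP and 1.08 in 6C3+ minus CSP. All-gene shares at that size were 20.7% and 20.8%. Median differences were 0.57 (all genes 0.11) and 0.43 (all genes 0.02). Over all cells, with the 15 CSP cells under 1000 genes included, the Hoxa10 differences were 0.84 and 0.51. The intervals of no member were apart, against 1.91% and 1.52% of genes. Between 6C3+ and THY+ no member reached 1, where 7.87% of genes did. Their median difference was -0.17 (all genes -0.12), with 2 of 9 members, Hoxa11 (0.04) and Hoxd13 (0.03), higher in 6C3+. Of all genes, 33% were higher in 6C3+. Hoxd13 turned to -3.16 with the log2 of the mean, and 8 of the 9 members changed direction under at least 1 alternative. No member had intervals apart, beside 0.447% of all genes.

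Genes that mark the limb of origin were found in the same populations as the members. Tbx5, a forelimb transcription factor, was detected in 27 of 125 cells, and Tbx4, its hindlimb counterpart, in 28. Pitx1, a hindlimb regulator, was in 6 cells. By population, Tbx5 was in 10 mSSC, 1 CSP, 8 THY+ and 8 6C3+ cells, and Tbx4 in 5, 0, 8 and 15, so both kinds of marker were present in mSSC, THY+ and 6C3+. Tbx5 without Tbx4 or Pitx1 was found in 20 cells, the reverse in 23, both in 7 and neither in 75. Hoxc10, the hindlimb gene among the members, was in 1 of the 20 Tbx5 cells, in 6 of the 23 Tbx4 or Pitx1 cells, in 1 of the 7 with both and in 11 of the 75 with neither. At least 1 member was in 16 of the 20 and 16 of the 23, Hoxa10 in 7 and 12, and Hoxd13 in 1 and 5. The Tbx4 or Pitx1 set holds 13 6C3+ cells of 23 against 5 of 20 in the Tbx5 set, so population and limb marker are mixed in these sums. Within mSSC the Hoxc10 counts were 1 of 9 and 2 of 5, within THY+ 0 of 5 and 2 of 5, and within 6C3+ 0 of 5 and 2 of 13.

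The remaining 29 Hox genes of the table, which cover the anterior and middle parts of the clusters and the whole of HoxB, were sparser. Of these, 11 were not detected in any main-set cell, and 10 were found in mSSC, 7 in CSP, 17 in THY+ and 7 in 6C3+. Hoxd8, the gene next to Hoxd9, was in 30 of 125 cells, more than any member except Hoxa10, with 7 mSSC, 1 CSP, 9 THY+ and 13 6C3+ cells (38.2%, 22.2 to 56.4, in 6C3+). Hoxa5 was in 13 cells, and Hoxc8, a neighbour of Hoxc9, in 7 mSSC and 4 THY+ cells but in 0 CSP and 0 6C3+ cells. Hoxc9, which adjoins Hoxc10, was in 4 mSSC and 2 THY+ cells. Hoxa3, a gene of the anterior end of the cluster, was in 7 THY+ cells (16.3%) and 1 6C3+ cell and in none of mSSC or CSP, and Hoxd4 was in 8 cells. Genes 5′ of Hoxc10 were almost unseen, with Hoxc11 in 1 cell and Hoxc12 and Hoxc13 in 0. The posterior HoxB genes Hoxb9 and Hoxb13 were in 0 as well.

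Among 15 noncoding and neighbouring genes of the clusters, the commonest were genes beside HoxD. Lnp, which encodes an endoplasmic reticulum protein and lies beyond the 5′ end of HoxD, was in 38 of 125 cells, and Mtx2, a mitochondrial import gene beyond its 3′ end, in 29. Jazf1 and Skap2, which neighbour HoxA, were in 20 and 9 cells. Hoxd3os1, an antisense RNA of HoxD, was in 9 cells, 5 of them 6C3+. Hottip and Hotair, long noncoding RNAs of the 5′ HoxA and the HoxC cluster, were in 0 cells, as were Evx1 and Evx2, the homeobox genes beside Hoxa13 and Hoxd13.

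Hox proteins bind DNA with partners of the Pbx, Meis and Pknox families. Of these, Pknox1 was in 22 of 125 cells, Pbx3 in 19, Pbx2 in 13 and Meis1 in 10, 7 of them THY+.

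Of 19 other genes of limb patterning, 4 were not detected in any cell, and all but Gli3, Tbx15, Shox2, Ptch1 and Tbx3 were in at most 11 cells. Gli3, the hedgehog-controlled factor of the anterior limb, was in 54 cells, of which 6 were mSSC, 4 CSP, 24 THY+ and 20 6C3+. Tbx15, a factor of limb skeleton growth, was in 54 cells too, with 18 mSSC, 0 CSP, 19 THY+ and 17 6C3+ cells. Shox2, which acts in the upper limb segment, was in 22 cells, Ptch1, the hedgehog receptor, in 21 and Tbx3 in 19. Tbx15 and Hoxa10 shared 27 cells against 20.8. Tbx15 was not detected in any of the 11 CSP cells, where Hoxa10 was in 1, Hoxc10 in 0 and every HoxD member in 0.

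The genes most like each of the 3 commonest members across cells were ranked by Pearson correlation of log2(FPKM + 1) over 125 cells, after each population's mean was subtracted, among 7612 genes found in at least 10% of cells. Cells share libraries and gene number with all their genes, and the values are descriptive. For Hoxa10 the first was Pdgfra, the receptor for platelet-derived growth factor of fibroblastic stroma (r = 0.490), then Lpgat1 (0.397) and Prr14l (0.366). For Hoxa9 the leading genes were Anks3 (0.414) and Nr1d1 (0.410), and for Hoxc10 Pnpt1 (0.386), Pef1 (0.368) and Echdc2 (0.364). Pdgfra was detected in 14 of the 16 Hoxa10-positive THY+ cells against 8.19 from the product, and in 10 of 11 such 6C3+ cells against 8.09. In mSSC it was in 2 of 17 against 1.38, where Pdgfra itself was in 3 cells. Since the ranking over these same cells picked Pdgfra, its shared detection with Hoxa10 adds no separate evidence. Among members found in at least 10% of cells the correlations with these 3 were all between -0.11 and 0.11, and ranks of members among the 7612 genes ran from 995 to 7322.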

How the data were processed

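The deposited table holds 1 column of FPKM per cell for 24388 genes and 92 ERCC spike-ins, as estimated by the authors. The mm10 build and SAMtools are named, per the submitters' processing notes. The aligner, the program that estimated FPKM, its annotation and its use of strand are likewise not given in the sources used here. Libraries were made with SMARTer and Nextera XT reagents from imaged, live single cells, per the labels' protocols. Columns were matched to cells by index names (0 unmatched, 0 identical), no index pair was used for more than 1 cell, and index numbers form 3 sets of pairs, which no label calls plates. Replicate numbers only name cells. The 102 cells under 1000 detected genes were set aside and are used in the alternatives and the closing observations.

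Detection was FPKM of at least 1, levels were compared as mean log2(FPKM + 1), and a gene was called past a difference of 1 in size or where the Clopper-Pearson 95% intervals of the 2 shares were apart, over all genes found in at least 1 cell of either population. The script was tested on simulated data that held planted 16-fold differences. These were planted only in genes found in more cells than any member, so the test does not cover genes as sparse as the members. All 10 members are named; genes of other lists are named where found in at least 10% of a population's cells, up to 6 a list, and other genes were picked with their values in view. The members and lists were chosen with earlier results of these data known. Alternatives were detection above 0 or at 10, pseudocounts of 0.1 and 10, rescaled FPKM, the log2 of the mean, other sets of cells and other filters on genes. Sequences came from GENCODE M21 and RefSeq (GRCm38.p6). Calculations used scipy 1.17.1, pandas 2.3.3 and numpy 2.4.6 under Python 3.11.15, and plots matplotlib 3.10.9. Results for some genes are not reported here.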

Additional observations from a re-analysis of the deposited data

Results flagged for a closer look

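Posterior Hox genes were also found in the 102 cells with under 1000 detected genes, which no main-set comparison used: 15 CSP, 29 THY+ and 58 6C3+ cells. A gene was singled out where it was in more than 3 of these cells (2.94%). Hoxa10 was in 9 cells (8.82%, 4.11 to 16.1), of which 1 was CSP, 3 THY+ and 5 6C3+. Hoxd11 was in 7 cells (6.86%, 2.80 to 13.6), 4 THY+ and 3 6C3+. Hoxd13 was in 5 cells (4.90%, 1.61 to 11.1), 2 THY+ and 3 6C3+. Levels reached 104 FPKM for Hoxa10, 100 for Hoxd11 and 121 for Hoxd13, all in 6C3+ cells.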

How the results depend on the processing

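No alternative reversed a direction that was called. Of 954 alternative values of 134 results, 813 stayed on their side of the size limit of 1, within the main interval or close to the main count. A difference under 1 in size in both settings counted among the 813 whatever its sign. Of 53 member differences, 21 changed sign under at least 1 alternative, none of them past 1 in the main setting. Requiring FPKM of 10 lowered the share with any member to 45.9% in mSSC and 44.2% in THY+, with a HoxA member to 29.7% (mSSC), 23.3% (THY+) and 20.6% (6C3+), and with a HoxD member to 25.6% (THY+). At that threshold at least 2 members were in 13.5% of mSSC, 0% of CSP, 23.3% of THY+ and 14.7% of 6C3+ cells, and means per cell were 0.649, 0.791 and 0.588 in mSSC, THY+ and 6C3+. With all 227 cells the 6C3+ shares were 37% (any), 26.1% (HoxA), 21.7% (HoxD) and 16.3% (at least 2), and means were 1.06 in THY+ and 0.609 in 6C3+. In cells with 2000 to 3000 genes the THY+ HoxD share was 25% and the mean 1.06.

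The number of members past a difference of 1 in CSP minus mSSC (2 as reported) was 0 with a pseudocount of 10, 5 with the log2 of the mean, and 1 each with at least 2000 genes, with 2000 to 3000 genes and without the first 2 index rows. In THY+ minus mSSC (0) it was 1 with a pseudocount of 0.1, over all cells and without those index rows, and 8 with the log2 of the mean. In 6C3+ minus mSSC (0) it was 1 with a pseudocount of 0.1 and over all cells, and 8 with the log2 of the mean. In THY+ minus CSP (1) it was 6 and 0 with pseudocounts of 0.1 and 10, 0 in the set of all cells, 2 in cells with 2000 genes or more and in THY+ cells under 6 pericyte markers, and 7 with the log2 of the mean. In 6C3+ minus CSP (1) it was 3 and 0 with those pseudocounts, 6 with the log2 of the mean, and 0 over all cells and with 2000 to 3000 genes. In 6C3+ minus THY+ (0) it was 3 with the log2 of the mean. The log2 of the mean, which a few high cells decide by its construction, gave median differences of -2.18, -1.24, -1.33, 2.19 and 1.23 in the first 5 comparisons. A pseudocount of 0.1 gave 1.13 in THY+ minus CSP. Without a filter on low values the share of all genes past 1 was 8.82%, 7.14%, 6.48%, 11.4%, 10.8% and 4.47% in the order above, because genes at 0 in both populations were then counted. The cause of the other changes was not tested.

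No paired analysis was possible because replicate numbers were given in accession order and no fit was made. With 11 CSP cells in the main set a share of up to 28.5% could go undetected, and unknown read depth leaves a value of 0 unresolved.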

Other observations

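In the same shallow cells Hoxa13, which was not detected in the 125 deeper cells, was found in a single 6C3+ cell of 58, at 73.1 FPKM. Hoxa9 was in 2 cells, Hoxa11 and Hoxd9 in 3 each and Hoxd10 in 2, while Hoxc10 and Hoxd12 were in 0 of 102 (up to 3.55%). All 3 Hoxd9 cells were THY+.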
